A study of Mus musculus with 12 samples.

Results

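Myc, Mycn, Mycl, Max, Mxi1, Mxd1, Mxd3, Mxd4, Mnt and Mga encode the Myc family, its obligate partner and the proteins that compete for that partner. These 10 genes were chosen by symbol, from what is known of the network, with earlier results of these data known. Each of them was found among the 14610 genes with counts in the series. The RNA came from mouse neural stem cells in culture that express PDGFB, a growth factor, and that stand for a paediatric tumour of the brainstem, diffuse intrinsic pontine glioma (DIPG). The 4 groups were K27M cells given EPZ6438, wild-type cells given EPZ6438, K27M cells given DMSO and wild-type cells given DMSO, with 3 libraries each. K27M cells expressed histone H3.3 with lysine 27 replaced by methionine, wild-type cells expressed unmutated H3.3, and both genotypes carried PDGFB. EPZ6438 blocks EZH2, the enzyme that methylates lysine 27 of histone H3. It was given at 3 µM, and inhibitor and solvent groups were both kept for 12 days in neural stem cell medium with EGF and bFGF. The labels name no promoter, clone or animal for these cells and leave unsaid whether replicates came from separate cultures. The p-values therefore cover the spread among these libraries alone, which may be technical.

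Myc proteins bind DNA as dimers with Max, at sequences called E-boxes of the form CANNTG with CACGTG as the preferred one, and raise the transcription of genes for growth, metabolism and ribosome production. Mxd1, Mxi1, Mxd3, Mxd4 and Mnt also pair with Max, bind the same sequences and recruit Sin3 corepressors, so they oppose Myc. Mga is a large Max partner with a second DNA-binding domain of the T-box type and belongs to PRC1.6, a form of the Polycomb repressive complex. In neural progenitors, Mycn is known for its part in the expansion of the cerebellum and cortex, and Myc and Mycn are amplified in several brain tumours.

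The sequences before the starts of Mycn, Mxd4 and Mxi1 are shown because the inhibitor response of these genes differed between the genotypes, and for Mxi1 a window near the start of each listed transcript is shown because these start in separate places. Each run is 250 bases ending at the base before the start, 5′ to 3′ on the gene's strand, from RefSeq on GRCm38.p6, and capitals mark each CANNTG. The coordinates are chr12:12941837-12942086 on the minus strand for Mycn, chr5:34187711-34187960 on the minus strand for Mxd4, and chr19:53310256-53310505 and chr19:53329163-53329412 on the plus strand for Mxi1.
Mycn: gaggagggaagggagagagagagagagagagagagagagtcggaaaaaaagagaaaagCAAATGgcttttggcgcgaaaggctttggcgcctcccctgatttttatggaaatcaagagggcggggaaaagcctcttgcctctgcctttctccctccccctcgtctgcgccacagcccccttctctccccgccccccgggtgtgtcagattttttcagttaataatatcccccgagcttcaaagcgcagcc
Mxd4: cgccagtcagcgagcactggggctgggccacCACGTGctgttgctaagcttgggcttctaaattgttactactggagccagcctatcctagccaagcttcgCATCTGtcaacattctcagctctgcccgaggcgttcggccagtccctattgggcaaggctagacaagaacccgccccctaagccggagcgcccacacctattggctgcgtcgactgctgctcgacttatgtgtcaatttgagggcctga
Mxi1, upstream start: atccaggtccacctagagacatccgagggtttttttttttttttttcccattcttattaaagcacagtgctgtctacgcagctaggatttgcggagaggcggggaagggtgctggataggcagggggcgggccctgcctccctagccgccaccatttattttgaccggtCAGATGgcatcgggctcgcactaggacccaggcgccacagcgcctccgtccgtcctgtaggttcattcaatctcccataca
Mxi1, downstream start: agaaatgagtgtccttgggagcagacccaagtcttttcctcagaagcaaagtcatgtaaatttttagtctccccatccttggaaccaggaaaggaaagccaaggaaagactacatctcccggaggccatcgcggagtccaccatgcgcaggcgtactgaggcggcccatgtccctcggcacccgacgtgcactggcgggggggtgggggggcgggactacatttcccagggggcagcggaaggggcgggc
The Mxd4 run holds CACGTG 219 bases before the start, while the Mycn and upstream Mxi1 runs hold a CANNTG of another form and the downstream Mxi1 run printed here holds none. RefSeq lists a further Mxi1 window, with chr19:53329445-53329694 on the plus strand as its 250 bases before the start, which hold a CANNTG. These lie downstream of the printed run and share no base with it. The search covered windows of 300 bases, from 250 before to 50 after each start, and both motifs were read on both strands, on which CACGTG is the same word and counts also as a CANNTG. RefSeq windows matched 9 of the 10 genes, with 11 windows in all, and had no entry for Myc. CACGTG stood in windows of 3 of them, Max, Mnt and Mxd4, and CANNTG in windows of 7. Among all 32851 windows, 7.15% held CACGTG and 72.3% held CANNTG, so these are descriptions of the letters and not of binding.

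Depth, in M estimated counts (1 M being 1000000), was 10.9 to 14.6 in K27M EPZ, 7.91 to 13.6 in wild-type EPZ, 22.1 to 24.1 in K27M DMSO and 10.8 to 15.8 in wild-type DMSO libraries. All 10 neural stem cell markers looked for, Sox2 and Nes among them, had counts in every group, and their summed level was 7923 to 8268 CPM (counts for each M counts) in K27M EPZ libraries, 7887 to 8337 in wild-type EPZ, 7454 to 7662 in K27M DMSO and 8416 to 8706 in wild-type DMSO. Summed over 7 neuron markers the level was 1496 to 1774 CPM in K27M EPZ and 1261 to 1672 in wild-type EPZ libraries, against 921.6 to 978.1 in K27M DMSO and 531.8 to 893.9 in wild-type DMSO. K27M against wild-type cells under DMSO gave 1 neuron marker higher and 1 lower of 6 tested, by edgeR's adjusted p below 0.05. Of all genes, 29.8 and 30.4% were. With the inhibitor 6 of 7 were higher and 1 lower in K27M cells (28.9 and 27.3% of all genes). Wild-type cells had 6 of 7 higher and 0 lower (21.4 and 20.7%). Of 6 mesenchymal markers, 5 were listed, Dcn and Lum being at 0 in both DMSO groups, and the sum was 26.4 to 34.0 CPM in K27M EPZ and 29.6 to 35.0 in wild-type EPZ, against 2.56 to 3.16 in K27M DMSO and 2.39 to 3.09 in wild-type DMSO. Of 6 mature oligodendrocyte markers 3 were listed and Mog, Mag and Mobp were not, with a sum of 81.5 to 89.4 CPM in K27M EPZ and 104.6 to 112.6 in wild-type EPZ, against 149.3 to 154 in K27M DMSO and 218.1 to 243.9 in wild-type DMSO. In K27M against wild-type cells under DMSO, 1 of these 3 genes was lower and 0 higher by edgeR's adjusted p below 0.05 (30.4 and 29.8% of all genes). Their median log2 fold change was 0.413, opposite in direction to the sum. Of 5 endothelial markers 2 were listed, with a sum of 13.8 to 17.6 CPM in K27M EPZ and 14.0 to 15.9 in wild-type EPZ, against 6.27 to 7.18 in K27M DMSO and 7.49 to 8.64 in wild-type DMSO, and Cdh5, Cldn5 and Tek were not listed. No microglia marker of 6 was listed. With the inhibitor the neural stem cell sum was higher in K27M cells and lower in wild-type cells. The other sums moved the same way in both genotypes. Sums weigh abundant genes most. By edgeR's adjusted p below 0.05, 3 of the 10 neural stem cell markers were higher and 5 lower in K27M cells (28.9 and 27.3% of all genes), with a median log2 fold change of -0.243. In wild-type cells 1 was higher and 6 were lower (21.4 and 20.7% of all genes), with a median of -0.278. The part of marker changes in the results was not tested. In bulk RNA, fewer cells of a type and less RNA per cell cannot be told apart. Gene counts do not show the substitution itself, so the genotype labels could not be checked from them.

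Compared per transcript length, in TPM (transcripts for each M transcripts), Myc was the most abundant of the 10 genes in each group and Mycn the least. Myc averaged 207.3 ± 6.46 TPM in K27M EPZ cells, 200.4 ± 1.89 in wild-type EPZ, 148.3 ± 9.26 in K27M DMSO and 181.4 ± 13.1 in wild-type DMSO (SD, n = 3 each). Mxd4 came next, with 150.6 ± 1.30 TPM in K27M EPZ, 152.2 ± 5.66 in wild-type EPZ, 95.7 ± 1.42 in K27M DMSO and 124.3 ± 4.90 in wild-type DMSO. Max, the shared partner, stayed between 88.8 and 98.9 TPM in the group means, and in K27M DMSO cells its 88.8 ± 1.33 TPM lay close below Mxd4. Mxd3 had group means of 73.6 to 93.9 TPM, overlapping those of Max. Mxi1 and Mga lay lower, at 21.6 to 42.5 and 19.6 to 40.6 TPM, and Mycl and Mnt at 18.7 to 28.3 and 17.9 to 28.4 TPM. Mxd1 had 9.33 to 12.7 TPM. Mycn averaged 4.95 ± 0.87 TPM in K27M EPZ, 6.48 ± 0.86 in wild-type EPZ, 2.92 ± 0.23 in K27M DMSO and 1.501 ± 0.31 in wild-type DMSO, resting on 60 to 79, 56 to 83, 63 to 83 and 21 to 25 counts per library.

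**Figure D1:**
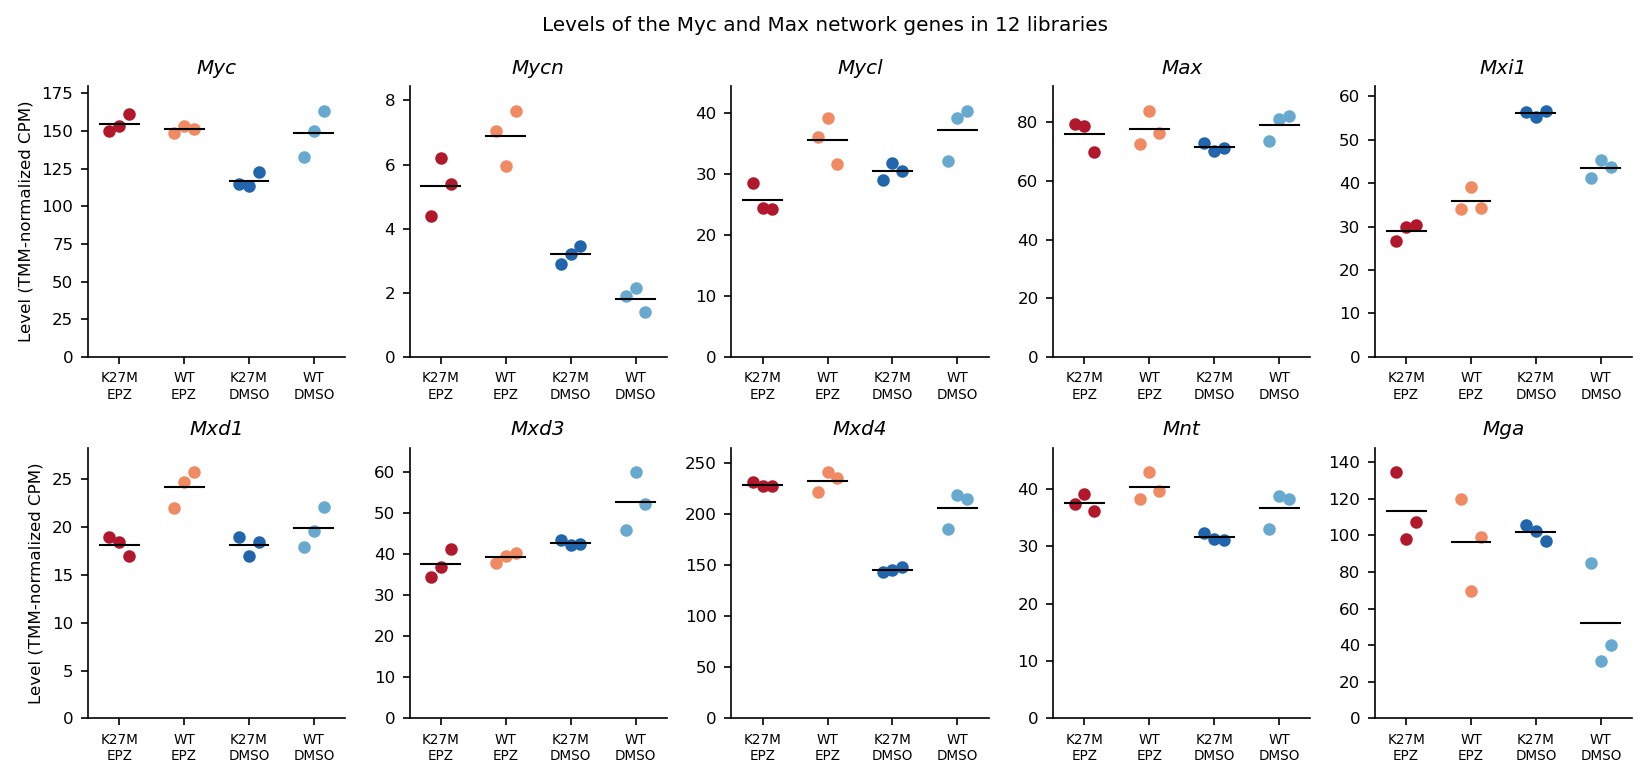
Level of each of the 10 genes in every library, as TMM-normalised CPM on a linear axis from 0, with 1 panel per gene. Points are libraries and bars are group means (n = 3). Mycn was lowest in wild-type DMSO cells, Myc and Mxd4 were lowest in K27M DMSO cells, Mxi1 was highest there, and the Mga libraries of wild-type DMSO cells spread from 31.6 to 84.7 CPM.

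By role, the summed level of Myc, Mycn and Mycl was 226.6, 228.7 and 237.3 TPM in K27M EPZ libraries, 234.6, 234.2 and 236.6 in wild-type EPZ, 167.5, 167.9 and 185.3 in K27M DMSO and 194.5, 210 and 223.9 in wild-type DMSO. All 3 K27M DMSO libraries lay below the other 9. The summed level of the Max partners that oppose Myc or act in PRC1.6 (Mxi1, Mxd1, Mxd3, Mxd4, Mnt and Mga) was 321.8 ± 3.55 TPM in K27M EPZ, 332.5 ± 9.82 in wild-type EPZ, 281.8 ± 2.21 in K27M DMSO and 299.2 ± 12.3 in wild-type DMSO. The ratio of the Myc sum to this sum was 0.717 ± 0.013 in K27M EPZ, 0.708 ± 0.017 in wild-type EPZ, 0.616 ± 0.041 in K27M DMSO and 0.702 ± 0.075 in wild-type DMSO. Within the wild-type DMSO group the ratio spread from 0.639 to 0.785, and the highest K27M DMSO library, at 0.664, lay inside that range. RNA sums do not measure protein, and the sums were not tested. They were not adjusted for the GC content of transcripts. With each library's trend over GC content removed, Myc was at log2 -0.04 for K27M against wild-type cells under DMSO (edgeR adjusted p = 0.491). For the inhibitor in K27M cells Myc was then at 0.34 (edgeR adjusted p = 3.17e-06).

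**Figure D2:**
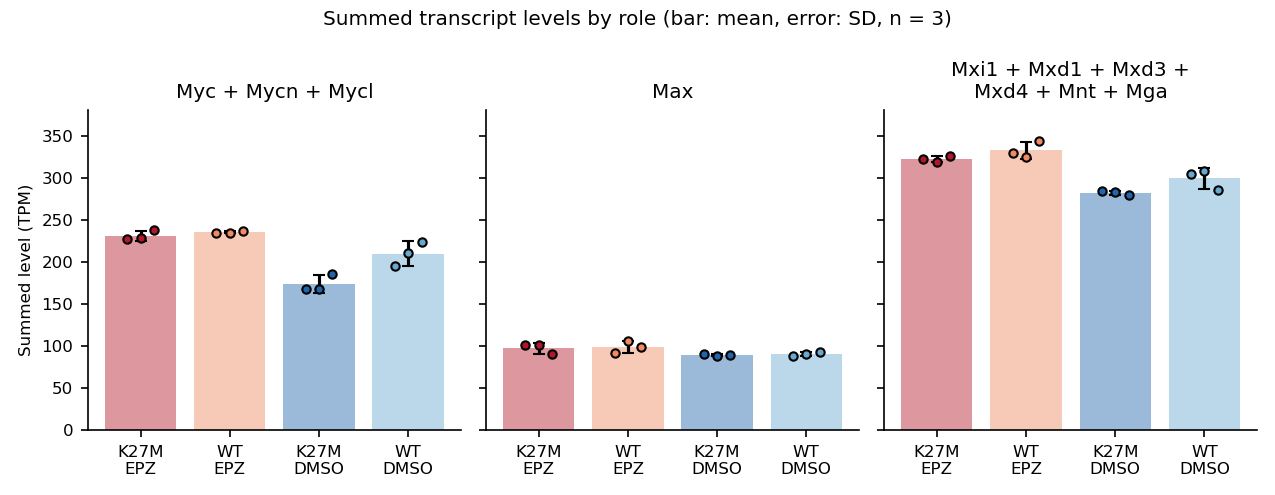
Summed TPM of the Myc genes, of Max, and of the 6 other Max partners in the 4 groups, on a linear axis from 0. Bars are means, error bars SD and points libraries (n = 3). The Myc sum was 173.6 ± 10.2 TPM in K27M DMSO cells and at least 194.5 TPM in every library of the other groups, while group means of Max ran from 88.8 to 98.9 TPM. The sums were not adjusted for GC content.

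K27M cells under DMSO, set against wild-type cells under DMSO, had more Mycn and Mxi1 RNA and less Myc, Mycl, Mxd3, Mxd4 and Mnt RNA. Thus 7 of the 10 genes passed the test (edgeR quasi-likelihood, adjusted p below 0.05), 2 higher and 5 lower, where 60.1% of all 13129 genes tested passed, 29.8% higher and 30.4% lower. With so many genes called, 7 of 10 is near the background. The median log2 fold change of the 10 genes was -0.14, and over all genes tested -0.00348. CPM of the 10 genes are scaled across the 12 libraries, and a transcript adds nothing in a group for which it was not listed. CPM of transcripts and of other genes are scaled within the 6 libraries of the comparison described, and so are all fold changes of a pair of groups.

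Within the Myc family, Myc had 115, 113.3 and 122.5 CPM in K27M cells, against 132.5, 149.9 and 163.6 CPM in wild-type cells. The groups did not overlap, which held for 70.2% of all genes tested, and the log2 fold change was -0.31 (SE 0.07, edgeR adjusted p = 0.011). Mycn, at low level, had 2.91, 3.21 and 3.47 CPM in K27M cells, against 1.89, 2.14 and 1.40 in wild-type cells. It was 1.84-fold higher (log2 0.88, SE 0.20, edgeR adjusted p = 0.0119), with every K27M library above every wild-type one. Mycl, a family member first known from lung cancer, had 29.0, 31.8 and 30.4 CPM in K27M cells, against 32.1, 39.1 and 40.3 in wild-type cells, where replicate 1 lay close to the K27M libraries (log2 -0.25, SE 0.08, edgeR adjusted p = 0.0355). Max had 72.8, 70.2 and 71.4 CPM in K27M cells, against 73.5, 81.1 and 82.2 in wild-type cells, and did not pass (log2 -0.10, SE 0.05, edgeR adjusted p = 0.0873).

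Among the antagonists, Mxi1 was the one that rose. It had 56.4, 55.2 and 56.7 CPM in K27M cells, against 41.1, 45.3 and 43.8 in wild-type cells (log2 0.41, SE 0.04, edgeR adjusted p = 0.00133). Mxd4 fell to 143.6, 145 and 148 CPM in K27M cells, against 185.8, 219.2 and 214.8 in wild-type cells. Its groups were far apart, and the log2 fold change was -0.46 (SE 0.05, edgeR adjusted p = 0.00135). Mxd3, which is known for expression in proliferating progenitors in S phase, had 43.3, 42.1 and 42.4 CPM in K27M cells, against 45.9, 59.9 and 52.1 in wild-type cells (log2 -0.26, edgeR adjusted p = 0.0287). Mnt, the broadly expressed antagonist, had 32.3, 31.2 and 31.1 CPM in K27M cells, against 33.1, 38.8 and 38.2 in wild-type cells (log2 -0.18, edgeR adjusted p = 0.0382). Wild-type replicate 1 stood nearest to K27M for both. Mxd1, an antagonist linked to differentiation, had 17.0 to 19.0 CPM in K27M cells and 18.0 to 22.1 in wild-type cells and did not pass (log2 -0.10, edgeR adjusted p = 0.353).

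Mga had 105.8, 102.2 and 97.1 CPM in K27M cells, against 84.7, 31.6 and 40.0 in wild-type cells. The wild-type libraries disagreed among themselves by more than 2-fold, and the log2 difference of 0.98 (SE 0.37) did not pass (edgeR adjusted p = 0.0558). Without wild-type DMSO replicate 1 it was 1.54 (edgeR adjusted p = 6.74e-07), and Mga also passed with DESeq2 size factors, in DESeq2's Wald test and in the joint fit of 12 libraries. Over the genes tested, the log2 fold change of this comparison had a rank correlation of -0.70 with the GC content of the gene's transcripts, a description across genes that share these 6 libraries, and GC ran from 42.7% in Mga to 59.5% in Mnt among the 10 genes. With each library's trend over GC removed, 4 of the 10 genes were called, where 43% of all genes were. They were Mycn at 1.11, Mxi1 at 0.38, Mxd4 at -0.19, and Mnt with its direction turned at 0.17 (edgeR adjusted p = 0.0273). In that fit Myc was at -0.04 (edgeR adjusted p = 0.491), Mycl at 0.01 and Mxd3 at 0.05. Leaving out K27M DMSO replicate 1, 2 or 3 or wild-type DMSO replicate 3 left 4 calls (Myc, Mycn, Mxi1 and Mxd4), leaving out wild-type DMSO replicate 2 left 5, and leaving out wild-type DMSO replicate 1 gave 9. Of all genes, 38.9, 38.4, 44.3 and 37.9% were called in the first 4 of these fits, 46.7% in the next and 68.9% in the last.

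The inhibitor in wild-type cells raised Mycn and Mxd4 and lowered Mxd3, so 3 of the 10 genes were called, 2 higher and 1 lower, where 42.1% of all 12870 genes were called, 21.4% higher and 20.7% lower. The members' median log2 fold change was 0.13, against 0.0413 over all genes tested. A fit with the replicate numbers as a block called more of the 10 genes, where it called 55.4% of all genes. Whether replicates pair in this comparison was not resolved. Mycn showed the largest fold change of any of the 10 genes in any pair of groups. It had 7.04, 5.95 and 7.68 CPM in EPZ libraries, against 1.89, 2.14 and 1.40 in DMSO libraries, or 3.91-fold more (log2 1.97, SE 0.22, edgeR adjusted p = 0.000617). Mxd4 had 221.8, 241.3 and 235.5 CPM in EPZ libraries, against 185.8, 219.2 and 214.8 in DMSO libraries, separate by a small margin (log2 0.21, SE 0.07, edgeR adjusted p = 0.0429). Mxd3 had 37.9, 39.6 and 40.1 CPM in EPZ libraries, against 45.9, 59.9 and 52.1 in DMSO libraries (log2 -0.39, SE 0.09, edgeR adjusted p = 0.0152).

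Myc itself had 148.8, 153.4 and 151.4 CPM in wild-type EPZ libraries, against 132.5, 149.9 and 163.6 in DMSO libraries (log2 0.08, edgeR adjusted p = 0.37). In this fit the values were 148.1, 156.5 and 151.8 against 136, 140 and 156.2, and the groups overlap on either scale. Mxi1 had 34.1, 39.1 and 34.3 CPM in EPZ libraries, against 41.1, 45.3 and 43.8 in DMSO libraries. These do not overlap, which held for 55.4% of all genes tested, but Mxi1 did not pass (log2 -0.24, edgeR adjusted p = 0.0643). Mxd1 at 0.32 (adjusted p = 0.0505), Mnt at 0.17 (0.142), Max at 0.01 (0.902) and Mycl at -0.02 (0.87) did not pass either, as log2 fold changes with edgeR adjusted p-values. In this fit Mga had 119.5, 71.8 and 99.3 CPM in EPZ libraries, against 77.75, 23.3 and 37.95 in DMSO libraries, with overlap (log2 1.06, SE 0.42, edgeR adjusted p = 0.079). Across the 12 libraries the values were 120.1, 69.8 and 99.1 against 84.7, 31.6 and 40.0. The latter include transcripts not listed for wild-type EPZ libraries, Mga-204 among them. The Mxd4 call was lost without any one of these libraries except EPZ replicate 1, at log2 values of 0.11 to 0.22 (edgeR adjusted p up to 0.161). The Mxd3 call was lost without EPZ replicate 1 or 3 or DMSO replicate 3, at log2 values of -0.43 to -0.36 (adjusted p up to 0.0575). Without DMSO replicate 1, Mga was called at 1.58 (edgeR adjusted p = 0.0024) and Mxi1 at -0.30 (0.0209), giving 4 calls, and 1 call, Mycn, was left without EPZ replicate 3 or without DMSO replicate 3. Of all genes, 59.4, 26.1 and 25.8% were called in these fits. With GC trends removed, 7 were called, where 46.2% of all genes were. Newly called were Myc at 0.26 (edgeR adjusted p = 0.00591), Mnt at 0.36 (0.00107), Mxd1 at 0.36 (0.0169) and Mxi1 at -0.25 (0.0307).

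In K27M cells the inhibitor raised Myc, Mycn, Mxd4 and Mnt and lowered Mycl, Mxi1 and Mxd3. These are 7 of the 10 genes, 4 higher and 3 lower, where 56.3% of all 13503 genes tested were called, 28.9% higher and 27.3% lower, and the median log2 fold change was 0.13 for the members and 0.00963 for all genes tested. Myc rose to 149.9, 153.4 and 161.3 CPM in EPZ libraries, against 115, 113.3 and 122.5 in DMSO libraries (log2 0.42, SE 0.04, edgeR adjusted p = 2.72e-05). Mycn had 4.39, 6.22 and 5.39 CPM in EPZ libraries, against 2.91, 3.21 and 3.47 in DMSO libraries, or 1.66-fold more (log2 0.73, SE 0.17, edgeR adjusted p = 0.00465). Mycl went the other way, with 28.6, 24.4 and 24.2 CPM in EPZ libraries and 29.0, 31.8 and 30.4 in DMSO libraries (log2 -0.22, SE 0.07, edgeR adjusted p = 0.0269). Its first EPZ library nearly met the lowest DMSO library.

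The 2 antagonists with the largest changes in K27M cells moved in opposite directions. Mxd4 had 231.4, 227.5 and 227.9 CPM in EPZ libraries, against 143.6, 145 and 148 in DMSO libraries (log2 0.65, SE 0.03, edgeR adjusted p = 8.86e-08). Mxi1 had 26.7, 29.9 and 30.3 CPM in EPZ libraries, against 56.4, 55.2 and 56.7 in DMSO libraries (log2 -0.96, SE 0.06, edgeR adjusted p = 5.48e-07). For both genes the distance between the groups was many times the spread within either. In this comparison 63.1% of all genes tested had groups that did not overlap. Mnt had 37.4, 39.1 and 36.1 CPM in EPZ libraries, against 32.3, 31.2 and 31.1 in DMSO libraries (log2 0.25, SE 0.05, edgeR adjusted p = 0.00214), and with GC trends removed it was at 0.09 (adjusted p = 0.161). Mxd3 had 34.3, 36.8 and 41.2 CPM in EPZ libraries, against 43.3, 42.1 and 42.4 in DMSO libraries (log2 -0.19, SE 0.07, edgeR adjusted p = 0.0303).

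Max (log2 0.09, edgeR adjusted p = 0.139), Mxd1 (0.00, 0.963) and Mga (0.17, 0.146) did not pass in K27M cells. With GC trends removed, 8 of the 10 genes were called there, where 59% of all genes were. Mga was then called at 0.31 (edgeR adjusted p = 0.000576) and Max at 0.12 (0.0416), while Mxd1 and Mnt were not called. Mga had 134.6, 98.0 and 107.6 CPM in K27M EPZ libraries, against 105.8, 102.2 and 97.1 in K27M DMSO libraries, which overlap. The Mycl call was lost without EPZ replicate 2 or 3 or without DMSO replicate 2 or 3, at log2 values of -0.23 to -0.18, and the Mxd3 call without any one library except EPZ replicate 3, at -0.20 to -0.13. Calls of Myc, Mycn, Mxd4 and Mxi1 held under every alternative run for this comparison.

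**Figure D3:**
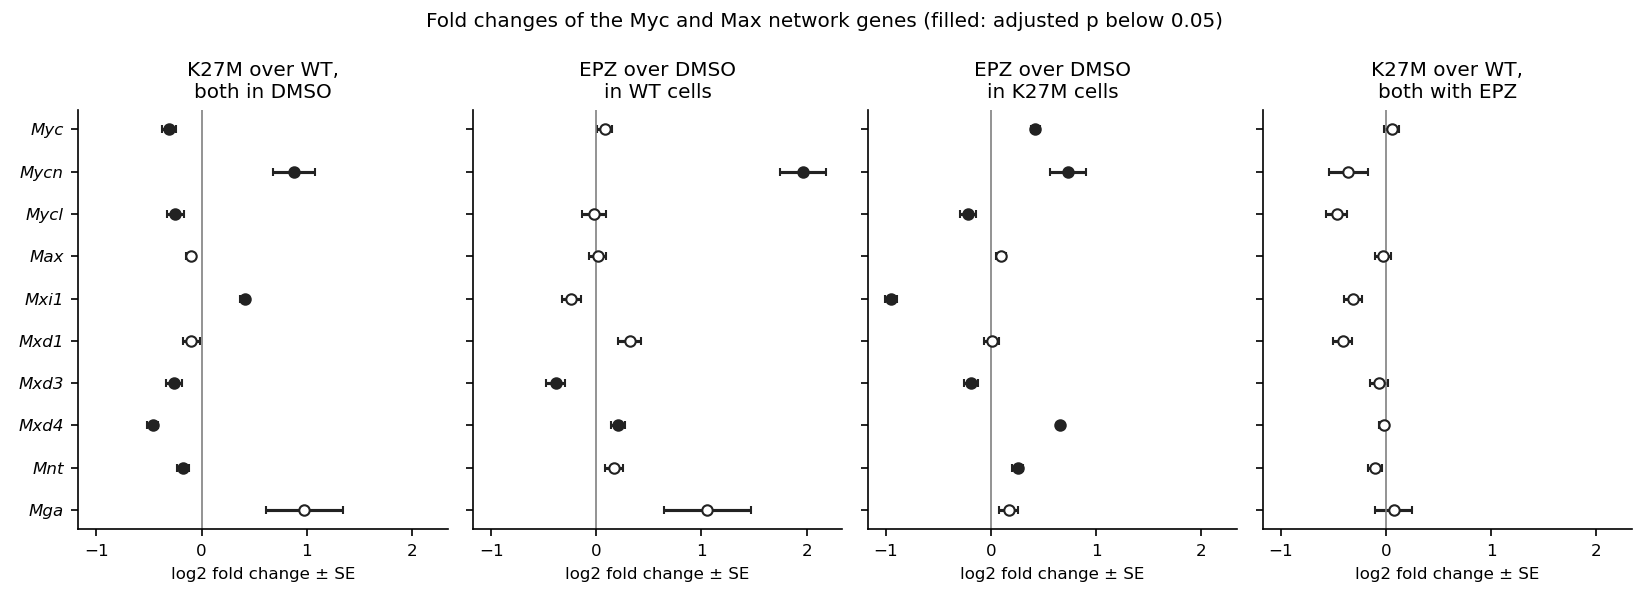
Log2 fold change of each of the 10 genes in the 4 pairs of groups, with the standard error as bars. Filled points passed edgeR's adjusted p below 0.05. Mycn had the highest value in wild-type cells given EPZ6438 at 1.97, Mxi1 the lowest in K27M cells given EPZ6438 at -0.96, and no point is filled for K27M against wild-type under the inhibitor.

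With both genotypes under the inhibitor, none of the 10 genes was called in K27M cells against wild-type cells by edgeR's quasi-likelihood test, where 1.79% of all 13060 genes were, 0.567% higher and 1.23% lower. At an unadjusted p below 0.05 there were 3, where 16.7% of all genes were below it, and the DESeq2 Wald test called 1, Mycl, and 1.98% of all genes. The 3 genes were Mycl, with 28.6, 24.4 and 24.2 CPM in K27M EPZ libraries and 36.0, 39.1 and 31.6 in wild-type EPZ libraries (log2 -0.47, SE 0.10, edgeR adjusted p = 0.0667), Mxi1 and Mxd1. Mxi1 had 26.7, 29.9 and 30.3 CPM in K27M EPZ libraries and 34.1, 39.1 and 34.3 in wild-type EPZ libraries (log2 -0.31, SE 0.09, edgeR adjusted p = 0.138). Mxd1 had 19.0, 18.4 and 17.0 CPM in K27M EPZ libraries and 22.0, 24.7 and 25.8 in wild-type EPZ libraries (log2 -0.41, SE 0.09, edgeR adjusted p = 0.0692). In each of the 3 genes the groups did not overlap, which held for 23.5% of all genes tested. Mycn, which differed under DMSO, had a log2 value of -0.36 (SE 0.18, edgeR adjusted p = 0.378), Myc 0.06 (0.728), Mxd4 -0.02 (0.844), and Max, Mxd3, Mnt and Mga lay between -0.10 and 0.07. With GC trends removed, Mycl at -0.44 (edgeR adjusted p = 0.0306) and Mxd1 at -0.39 (0.0314) were called, where 5.69% of all genes were.

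The difference of the inhibitor response between the genotypes, K27M minus wild-type, was tested as an interaction over all 12 libraries. It was called for Mycn, Mxi1 and Mxd4, 3 of the 10 genes, where 35.8% of 13040 genes were, 20% higher and 15.8% lower, and the median was -0.0227 for the members and 0.0226 over all genes. Mycn rose in both genotypes but less in K27M cells, by a log2 difference of -1.20 (SE 0.28, edgeR adjusted p = 0.00799), with responses of 0.73 in K27M cells and 1.97 in wild-type cells. For Mxi1 the difference was -0.68 (SE 0.10, edgeR adjusted p = 0.000849), from responses of -0.96 in K27M cells and of -0.24, which did not pass, in wild-type cells. With GC trends removed its wild-type response was -0.25 and passed (edgeR adjusted p = 0.0307). Mxd4 rose by more in K27M cells, with a difference of 0.48 (SE 0.08, edgeR adjusted p = 0.00204) from responses of 0.65 in K27M cells and 0.21 in wild-type cells. These 3 kept their sign and call under every alternative run, with Mxd4 at 0.18 (edgeR adjusted p = 0.0076) once GC trends were removed.

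The Myc response, called in K27M cells and not in wild-type cells, was not shown to differ, at a difference of 0.32 (edgeR adjusted p = 0.0685). Without wild-type DMSO replicate 1 it was 0.35 (adjusted p = 0.012), and with GC trends removed 0.03 (0.834). Mga had a difference of -1.05 (edgeR adjusted p = 0.0825) and -1.64 without wild-type DMSO replicate 1 (adjusted p = 0.000774). The other 5 genes, Mycl, Max, Mxd1, Mxd3 and Mnt, lay between -0.28 and 0.24 and did not pass. With GC trends removed, Mnt was called at -0.27 (edgeR adjusted p = 0.0107) and Mycl at -0.45 (adjusted p = 0.028), where 21.6% of all genes were called. The 4 pairs of groups share libraries, so their values are not independent of each other.

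**Figure D4:**
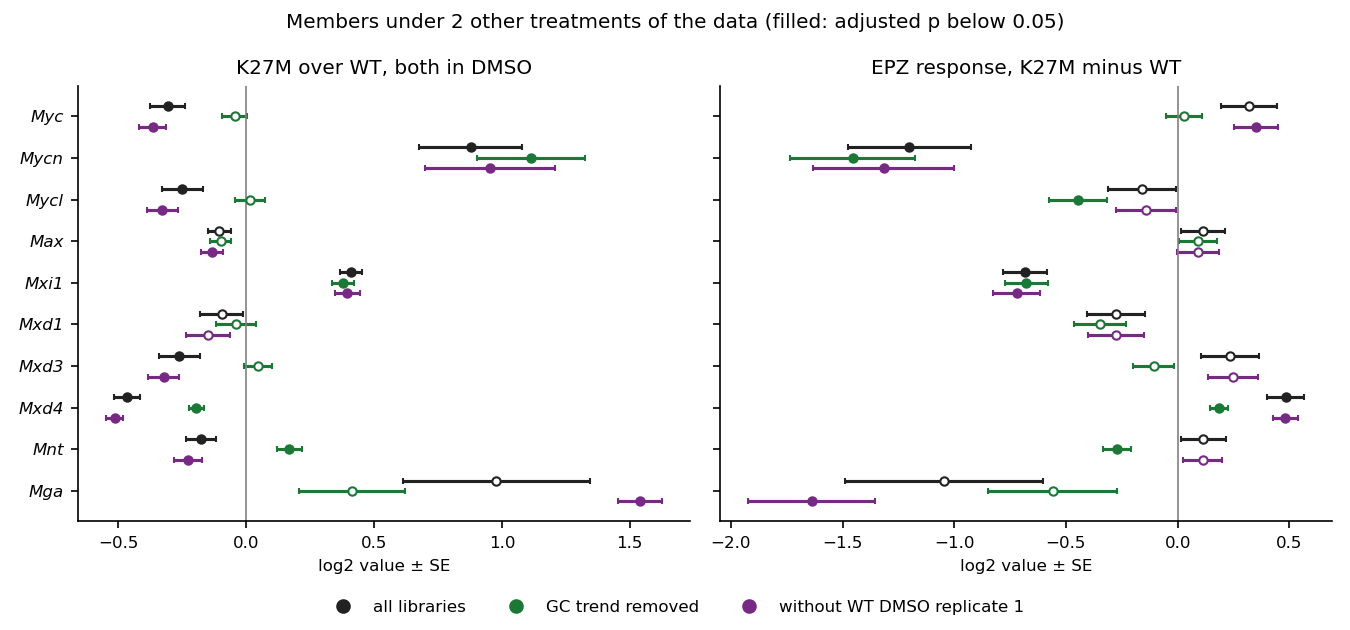
Log2 value of the 10 genes as fitted, with GC trends removed, and without wild-type DMSO replicate 1, with standard errors as bars, for K27M against wild-type in DMSO and for the difference of the inhibitor response. Filled points passed. Mycn, Mxi1 and Mxd4 keep their sides of 0 for K27M against wild-type in DMSO, whereas Mnt is at -0.18 as fitted and 0.17 with GC trends removed, and Mga is at 0.98 as fitted and 1.54 without that library.

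Libraries of each group differed along GC content. The rank correlation over genes between GC content and a library's deviation from its group mean was -0.687, 0.692 and 0.116 in K27M EPZ, -0.647, 0.693 and -0.302 in wild-type EPZ, -0.249, -0.469 and 0.635 in K27M DMSO and -0.833, 0.732 and 0.69 in wild-type DMSO libraries. The largest in size was that of wild-type DMSO replicate 1, though deviations from a mean of 3 libraries must take opposite signs within a group. Values without this library are given above, and the part of GC differences in the results was not tested beyond the values with their trends removed.

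Most of the 10 genes were listed with several transcripts, from 11 for Mga and 8 for Myc to 1 for Mxd1. Mxi1-201, the main Mxi1 transcript, starts at position 53310518 and Mxi1-202 at 53329458 of chromosome 19, 18940 bases apart, and they share 4 of 6 exons. Mxi1-201 had 16.2, 20.1 and 13.1 CPM in K27M EPZ libraries, against 39.6, 34.5 and 36.9 in K27M DMSO libraries (log2 -1.17, edgeR adjusted p = 0.00769 over all transcripts). Mxi1-202 did not pass there (log2 -0.73, edgeR adjusted p = 0.123). Of all Mxi1 counts, Mxi1-201 held 61.9, 67.3 and 43.4% in K27M EPZ, 88.1, 56.2 and 84.6% in wild-type EPZ, 69.1, 61.1 and 63.3% in K27M DMSO and 70.0, 80.7 and 69.5% in wild-type DMSO libraries. All 3 K27M DMSO shares lay below the 3 wild-type DMSO shares, though by a small margin, and within each genotype the EPZ shares overlap the DMSO shares, as do those of the EPZ groups with each other. These shares were not tested. Mxd4-201 was called at 0.63 in K27M EPZ against K27M DMSO cells (edgeR adjusted p = 0.000144) and at -0.49 in K27M DMSO against wild-type DMSO cells (adjusted p = 0.0166).

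Per transcript, 2 member transcripts were called of 30 tested in K27M against wild-type cells under DMSO (13% of all transcripts tested), none of 26 for the inhibitor in wild-type cells (8.2%), 2 of 30 for the inhibitor in K27M cells (15.3%) and none of 29 for K27M against wild-type cells under the inhibitor (0.00307%). In the authors' deposited tables, q-values below 0.05 stood beside 5 of 36, 1 of 31, 3 of 33 and 0 of 31 listed member transcripts in these comparisons, against 15.7, 10.6, 13.6 and 0.477% of all transcripts listed in the authors' deposited tables. These included Mxi1-201 for the inhibitor in K27M cells (q = 5.48e-07 in the authors' deposited table). Myc-202 had 4.09, 8.15 and 4.17 CPM in K27M DMSO libraries and was at 0 in the 3 wild-type DMSO libraries, a small part of the Myc total. Myc-208 went the other way, with 5.9e-07, 0.99 and 2.14 CPM in K27M DMSO and 20.8, 10.5 and 13.9 in wild-type DMSO libraries. It did not pass (log2 -3.84, edgeR adjusted p = 0.0912), nor did Myc-206 at -0.67 (0.0679) or Myc-204 at 0.65 (0.254). In the authors' deposited table the q-values were 0.0458 for Myc-208 and 0.015 for Myc-206. Myc-201 and Myc-205 have the same 2338 bases, so the split of counts between them is uncertain.

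In coding sequence, Max-202 differs from Max-201 by an added exon of 27 bases, 9 codons, near its start, at chr12:76961263-76961289 on the minus strand. It is shown because it separates the long and short forms of the shared partner, with the exon in capitals and 15 bases on each side.
Max-202: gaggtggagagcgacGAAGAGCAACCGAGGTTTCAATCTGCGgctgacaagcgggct
Without the capitals, the joined flanks occur in Max-201. The outer, untranslated ends of the 2 transcripts differ too. Max-201 held 73.8, 62.5 and 81.2% of Max counts in K27M EPZ, 68.7, 80.3 and 82.6% in wild-type EPZ, 77.8, 73.3 and 68.9% in K27M DMSO and 68.4, 66.9 and 71.9% in wild-type DMSO libraries. The groups overlap throughout.

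**Figure D5:**
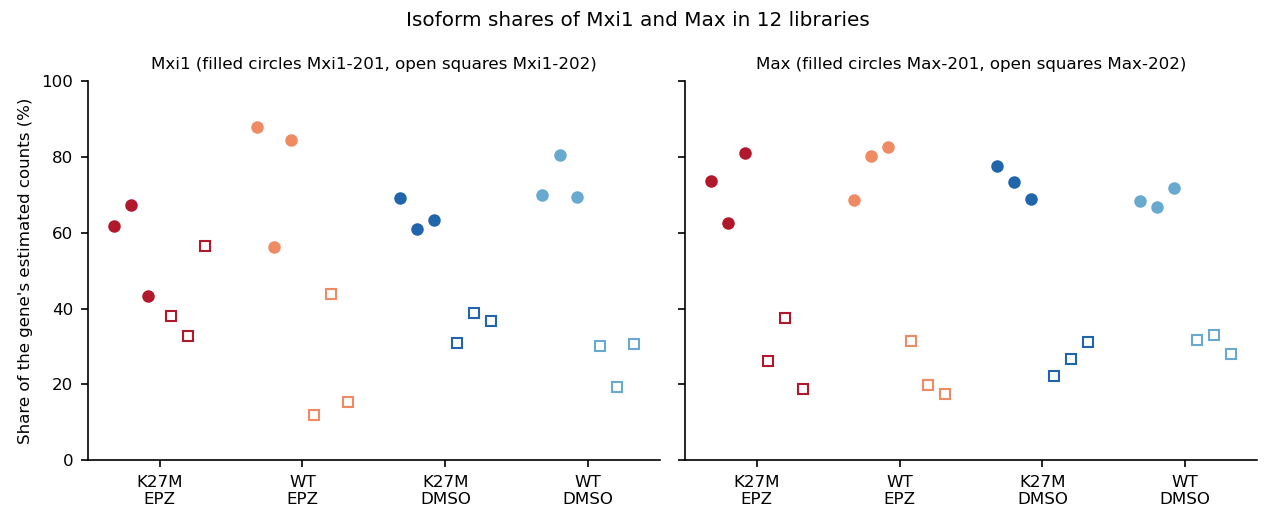
Percent of a gene's counts in Mxi1-201 and in Max-201 for each library, as filled circles, with the other listed transcript of each gene as open squares (n = 3 libraries a group, no error drawn). The Mxi1-201 share ran from 43.4% in a K27M EPZ library to 88.1% in a wild-type EPZ library, and the Max-201 share from 62.5 to 82.6%.

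The genes lie on 9 chromosomes of GRCm38, Mycn at chr12:12936093-12941914 and Max at chr12:76937269-76962201 on the same one, with Myc at chr15:61985391-61990374, Mxd4 at chr5:34173883-34187720, Mxi1 at chr19:53310518-53375810 and Mga at chr2:119897228-119969581. Exons of Mxi1, Mxd3 and Mxd4 overlap exons of a gene on the other strand by 194, 105 and 514 bases, that is 2.84, 4.43 and 6.06% of their exon bases. For Mxi1 that gene, Gm10197, had 1.03 to 2.82 CPM, and for Mxd3 it is Prelid1, at 104.6 to 152.6 CPM. The strand setting is not given in the sources used here, so reads of those stretches cannot be told apart.

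Counts of called genes in the lists that follow stand against the shares of all genes called: 29.8% higher and 30.4% lower for K27M against wild-type cells under DMSO, 21.4 and 20.7% for the inhibitor in wild-type cells, and 28.9 and 27.3% for the inhibitor in K27M cells. In these comparisons 43, 46.2 and 59% of all genes were called with GC trends removed, and without wild-type DMSO replicate 1, 68.9% in the first and 59.4% in the second. Of 12 cofactors and members of the Mondo arm, which pairs Mlx with Mlxip, 1 was higher and 6 were lower in K27M cells under DMSO (median log2 fold change -0.16, against -0.00348 over all genes tested). The Sin3 scaffolds used by Mxd proteins split, with Sin3a at 0.31 and Sin3b at -0.42, and Mlx at -0.28 and Zbtb17, through which Myc represses, at -0.27 were lower, though Zbtb17 was at 0.07 with GC trends removed. The list then had 6 higher and 2 lower. Under the inhibitor 2 were higher and 3 lower of 11 in wild-type cells (median -0.13, against 0.0413), with Mlxip at 0.39, Ruvbl2, an ATPase of Myc-bound complexes, at -0.61, Sin3b at -0.42 and Mlx at -0.32, and without wild-type DMSO replicate 1 the counts were 2 and 6 of 12. In K27M cells 2 were higher and 1 was lower (median 0.03, against 0.00963): Mlxip at 0.44, the scaffold Trrap at 0.12 and Ruvbl2 at -0.40. There 2 were higher and 3 lower with GC trends removed.

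Of 10 genes of Myc protein turnover, 5 were higher and 3 lower in K27M cells under DMSO (median 0.16, against -0.00348). Fbxw7, the ubiquitin ligase subunit that recognises phosphorylated Myc, had 47.8, 51.8 and 46.2 CPM in K27M cells and 32.2, 17.9 and 21.6 in wild-type cells (log2 1.02, edgeR adjusted p = 0.00711). The kinase Gsk3b at 0.60 and the ligase Skp2 at 0.36 were also higher. The counts were 4 higher and 1 lower with GC trends removed. The inhibitor gave 4 higher and 3 lower in wild-type cells (median -0.0119, against 0.0413), with Fbxw7 at 1.08, Gsk3b at 0.56 and the kinase Plk1 at -0.53. In K27M cells it gave 3 higher and 2 lower (median -0.0434, against 0.00963), with Fbxw7 at 0.23, Aurka, a kinase that stabilises Mycn protein, at -0.31 and Plk1 at -0.30.

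Of 11 partners of Mga in PRC1.6, 5 were higher and 3 lower in K27M cells under DMSO (median 0.27, against -0.00348). Rnf2, the catalytic ubiquitin ligase, had 102.6, 105.8 and 99.2 CPM in K27M cells and 67.8, 48.8 and 52.3 in wild-type cells (log2 0.86, edgeR adjusted p = 0.00261). Hdac2, a deacetylase, was higher at 0.61, L3mbtl2 lower at -0.44, and Yaf2 higher at 0.27 but at -0.32 with GC trends removed. The inhibitor gave 3 higher and 1 lower in wild-type cells (median 0.0274, against 0.0413), with Rnf2 at 0.77, Hdac2 at 0.44 and L3mbtl2 at -0.59, and 2 higher and 2 lower in K27M cells (median -0.0446, against 0.00963), with Yaf2 at -0.38 and Tfdp1 at -0.26.

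Of 18 ribosome biogenesis genes known as Myc targets, 8 were higher and 8 lower in K27M cells under DMSO (median -0.12, against -0.00348). The nucleolar genes Nop58 at 1.04, Ncl at 0.98, Gnl3 at 0.96 and Dkc1 at 0.92 were higher. Ncl, nucleolin, had 905.7, 860.9 and 807.9 CPM in K27M cells and 639.6, 302.2 and 367.2 in wild-type cells, where replicate 1 was nearest to K27M. With GC trends removed the list had 4 higher and 1 lower in this comparison, and without wild-type DMSO replicate 1 it had 8 higher and 10 lower. The inhibitor gave 3 higher and 2 lower in wild-type cells (median -0.062, against 0.0413), with Wdr43 at 1.30, Npm1 at 0.72, Nop16 at -0.40 and Wdr12 at 0.30 but -0.04 with GC trends removed, and the counts were 7 and 8 without wild-type DMSO replicate 1. In K27M cells 10 were higher and 2 lower (median 0.12, against 0.00963), led by Wdr43 at 0.33, Rrp12 at 0.31, Wdr12 at 0.30 and Ppan at 0.30, and 11 and 2 with GC trends removed.

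Of 22 Myc targets of metabolism, translation and growth, 7 were higher and 7 lower in K27M cells under DMSO (median -0.00218, against -0.00348). The transferrin receptor Tfrc at 0.84, the chaperonin Hspd1 at 0.43, Ppat of purine synthesis at 0.36 and the initiation factor Eif2s1 at 0.35 were higher, but with GC trends removed Tfrc was at -0.07, Ppat at -0.08 and Eif2s1 at -0.49, and the list had 3 higher and 7 lower. The inhibitor gave 2 higher and 5 lower of 21 in wild-type cells (median -0.12, against 0.0413): Id2 at 0.86, Ccnd2 at 0.85, Shmt2 of the folate cycle at -0.62 and lactate dehydrogenase Ldha at -0.40. Without wild-type DMSO replicate 1 it gave 4 higher and 11 lower. In K27M cells 6 were higher and 8 lower (median -0.0551, against 0.00963). Ccnd2, cyclin D2, had 2480, 2448 and 2395 CPM in K27M EPZ libraries and 1453, 1414 and 1446 in K27M DMSO libraries (log2 0.76, edgeR adjusted p = 4.7e-09). Id2 at 0.47 and Odc1, the first enzyme of polyamine synthesis, at 0.33 were higher, and Ppat was lower at -0.34.

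Of 6 genes known to be repressed by Myc, 2 were higher and 3 lower in K27M cells under DMSO (median -0.24, against -0.00348), 4 higher and 1 lower under the inhibitor in wild-type cells (median 0.44, against 0.0413), and 3 higher and 1 lower under the inhibitor in K27M cells (median 0.36, against 0.00963). Cdkn1a, the cell cycle inhibitor p21, was at -0.45 in K27M cells under DMSO and at 0.28 under the inhibitor in wild-type cells. In K27M cells Cdkn1a had 521.2, 537 and 527.6 CPM in EPZ libraries and 279.2, 275.4 and 281.4 in DMSO libraries (log2 0.92, edgeR adjusted p = 4.38e-09). Ndrg2 fell in each of these comparisons: -0.37 in K27M cells under DMSO, -0.56 under the inhibitor in wild-type cells and -0.91 under the inhibitor in K27M cells. It was also the one gene of these 6 lists called for K27M against wild-type cells under the inhibitor, with 73.2, 74.2 and 75.7 CPM in K27M EPZ libraries and 122.6, 123.6 and 123.1 in wild-type EPZ libraries (log2 -0.73, edgeR adjusted p = 0.00123). With GC trends removed, 4 ribosome biogenesis genes were called higher and 1 lower there, 4 metabolism, translation and growth genes higher and none lower, and 2 genes repressed by Myc higher and 1 lower, where 5.69% of all genes were called.

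The difference of the inhibitor response between the genotypes, K27M minus wild-type, was called higher in 20% and lower in 15.8% of all genes, with GC trends removed in 21.6% of them and without wild-type DMSO replicate 1 in 52%. Of the 18 ribosome biogenesis genes it was higher in 7 and lower in 3 (median 0.16, against 0.0226 over all genes tested), in 1 and 2 with GC trends removed, and in 9 and 7 without wild-type DMSO replicate 1. Of 21 metabolism, translation and growth genes it was higher in 8 and lower in 3 (median 0.12), in 3 and 0 with GC trends removed, and in 9 and 8 without that library. Of the 10 turnover genes it was higher in 1 and lower in 4 (median -0.0465), in 1 and 2 with GC trends removed, and in 4 and 5 without that library. Of the 11 PRC1.6 partners it was higher in 2 and lower in 3 (median -0.13), in 2 and 0 with GC trends removed, and in 2 and 6 without that library. It was higher in 1 and lower in 1 of the 12 cofactors (median 0.11), and higher in 2 and lower in 2 of the 6 genes repressed by Myc (median -0.22), in 2 and 3 with GC trends removed. With both genotypes under the inhibitor, the medians of the 6 lists for K27M against wild-type cells lay between 0.00444 and 0.14, against 0.00721 over all genes tested.

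Among genes at or above the median abundance, those whose log2 CPM was most like that of Myc over the 12 libraries were Rere (Pearson's r = 0.983), Srf (0.978) and Fgfr1 (0.975), of 6748 genes compared. For Mycn they were Nid1 (0.968), Itm2a (0.968) and Bcorl1 (0.959), of 6749 compared. These are descriptions over libraries that fall into 4 groups and share depth and GC differences.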

How the data were processed

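Per the labels' protocols, polyadenylated RNA was made into TruSeq libraries and sequenced on a HiSeq2500, and per the submitters' processing notes kallisto, sleuth and GRCm38 (mm10) were used. No version, transcript annotation or strand setting is given in the sources used. The authors deposited 4 tables, 1 per pair of groups with 6 libraries each, of estimated counts per transcript, p-values and q-values, and effects on the natural log scale, per the file headers. Each listed transcript reached 5 counts in 3 or more libraries. The values showed that the counts had been divided by a size factor per library and table. These factors were undone, and the estimated counts of each gene's transcripts were added up and then rounded. Transcripts without a gene name (0.45 to 0.577% of counts) were left out.

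Each pair of groups was tested two-sided on its 6 libraries with edgeR 4.0.16 in R 4.3.3 (filterByExpr, TMM, quasi-likelihood test), with Benjamini-Hochberg adjustment over all genes tested and a call at adjusted p below 0.05. The interaction used the 34436 transcripts listed in all 4 tables. Levels over 12 libraries used the 44294 transcripts listed in any table, with lengths from GENCODE M21 for TPM. GC trends were removed per library by lowess (span 0.3), with GC content for 99.6% of genes. DESeq2 1.42.0, DESeq2 size factors, no filter, omission of single libraries, a replicate block and a joint fit were alternatives. The edgeR script was first tested on simulated data. All 10 members are named, with, per list and comparison, up to 4 called genes of largest change at or above median abundance. One gene named by this rule is not reported here. Members and lists were chosen with earlier results of these data known.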

Additional observations from a re-analysis of the deposited data

Results flagged for a closer look

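The response to the inhibitor differed between the genotypes in 3 of the 10 genes by the interaction test over 12 libraries, where 35.8% of all genes were called. For Mycn the K27M response minus the wild-type response was -1.20 on the log2 scale (SE 0.28, edgeR adjusted p = 0.00799), and over the alternatives it ran from -1.46 to -1.06. For Mxi1 it was -0.68 (SE 0.10, edgeR adjusted p = 0.000849), with a range of -0.77 to -0.65. For Mxd4 it was 0.48 (SE 0.08, edgeR adjusted p = 0.00204), with a range of 0.18 to 0.50, the lowest being with GC trends removed. The counts behind Mycn were 21 to 83 per library, which limits its precision.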

How the results depend on the processing

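Of 20 calls among the 10 genes, 11 held under every alternative run: Mycn, Mxi1 and Mxd4 for K27M against wild-type in DMSO, Mycn for the inhibitor in wild-type cells, Myc, Mycn, Mxi1 and Mxd4 for the inhibitor in K27M cells, and Mycn, Mxi1 and Mxd4 for the interaction. Of 710 values under alternatives, 607 stayed on their side of the threshold, 48 passed it newly, 47 no longer passed and 8 changed sign with a call before or after. Of the 607, 25 changed sign, called in neither. Removing GC trends gave 4 members called in DMSO, 7 for the inhibitor in wild-type cells, 2 for K27M against wild-type under the inhibitor and 5 for the interaction, with 5645 genes (43% of those tested) called in DMSO, 5946 (46.2%) for the inhibitor in wild-type cells, 743 (5.69%) under the inhibitor and 2812 (21.6%) for the interaction. For the inhibitor in K27M cells, removing GC trends gave 8 members and 7961 genes (59%). The cause was not tested. It also changed signs in DMSO, with Mnt at 0.17, Mxd3 at 0.0453, Mycl at 0.0143, Zbtb17 at 0.0715, Eif2s1 at -0.49, Yaf2 at -0.32, Tfrc at -0.0652 and Ppat at -0.0843, for the inhibitor in wild-type cells with Wdr12 at -0.0409, and in the interaction with Mnt at -0.27. The same replicate numbers did not pair the libraries throughout (correlations of deviations -0.0346 to 0.322). For the inhibitor in wild-type cells the correlations were 0.286, 0.322 and -0.0318 for replicates 1, 2 and 3. For K27M against wild-type under the inhibitor they were 0.153, 0.127 and -0.0184. Whether replicates pair was not resolved in these comparisons. The replicate block gave 6 members and 7132 genes (55.4%) for the inhibitor in wild-type cells, 1 member and 539 genes (4.13%) under the inhibitor and 5 members and 5771 genes (44.3%) for the interaction. The replicate block with GC trends removed gave 3 members and 5202 genes (39.6%) in DMSO, 8 members and 6929 genes (53.8%) for the inhibitor in wild-type cells, 3 members and 808 genes (6.19%) under the inhibitor and 5 members and 3193 genes (24.5%) for the interaction. With it, Mnt was at 0.17, Mxd3 at 0.0449, Mycl at 0.0141, Zbtb17 at 0.0728, Eif2s1 at -0.49, Yaf2 at -0.32, Tfrc at -0.0655 and Ppat at -0.0844 in DMSO, Wdr12 at -0.0441, and Mnt at -0.27 in the interaction. The joint fit of 12 libraries gave 6 members and 7143 genes (54.8%) for the inhibitor in wild-type cells, and DESeq2's Wald test 1 member and 259 genes (1.98%) under the inhibitor. Leaving out 1 library gave 4 to 9 members and 5026 to 9279 genes in DMSO, 1 to 4 and 3344 to 7701 for the inhibitor in wild-type cells, 5 to 7 and 6626 to 7679 in K27M cells, 0 and 17 to 195 under the inhibitor, and 3 to 5 and 3241 to 6821 for the interaction. The counts of 9279, 7701 and 6821 genes came without wild-type DMSO replicate 1.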
